A study of Ovis aries with 40 samples.

Results

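Interleukin 6 (IL6), the transcription factor STAT3 and the transcription factor CEBPB were followed in sheep longissimus dorsi, the long muscle of the back, from mid gestation to the second month after birth. The 3 genes were chosen by earlier results of these arrays, among them the differences between breeds at 70 days in STAT3 and at 120 days in CEBPB. Their levels in all groups, those after birth included, were in view at the choice. The p-values given below for STAT3 and CEBPB may therefore be too small. Each had 1 member probe, so 3 of the 15008 probes on the array were members, and all 3 were among the 14480 probes that were well above background on at least 1 array. A further probe, named in the files by a gene ID that the RefSeq gene table gives as CEBPB, was found after the values were seen and is described beside the member as the second CEBPB probe, which makes 4 probes in all. IL6 is named in the files. The STAT3 and CEBPB member probes carry only expressed sequence tags there, and their names come from the study's annotation, which matched the tags to human transcripts.

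The study compared Texel sheep, a heavily muscled meat breed, with Ujumqin sheep, a fat-tailed breed of Inner Mongolia. Fetuses of both breeds were taken at 70, 85, 100, 120 and 135 days of gestation (T70 to T135 and U70 to U135), and Ujumqin lambs at birth, 1 month and 2 months (Ubirth, U1month and U2month). No group received a treatment, and every fetus was purebred and came from an estrus-synchronized, artificially inseminated ewe. There were 3 animals per group and 4 at T100, with 1 one-color array per animal and 40 arrays in all. The labels do not name the ewe of each fetus. Their protocol speaks of 3 pregnant ewes for the sampling, and if that held at each stage at least 2 of the 4 T100 fetuses shared a ewe, so p-values that treat them as 4 separate animals may be too small.

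The sexes were not spread evenly: the 3 T120 fetuses were male, and the U120, U135 and U2month animals were all female. The 40 arrays lay on 5 slides. T70 and U70 lay on different slides, and a breed difference there cannot be told apart from one between slides. The median signal per array ran from 217.6 to 708.3, no spot was saturated, and the number of arrays limits the precision. Of 6 measured skeletal muscle markers, the contractile genes TNNC2 and MYLPF were high on all arrays. Whole muscle was assayed, so a change in the number of cells of a type and a change in RNA per cell cannot be told apart.

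IL6 is a secreted cytokine that immune cells and contracting muscle fibers release. It binds its receptor together with the shared subunit gp130, Janus kinases then phosphorylate STAT3, and STAT3 dimers enter the nucleus and switch on genes of the acute phase response. CEBPB, first described as a nuclear factor for IL6 expression, is a leucine zipper protein that binds the promoters of IL6 and of acute phase genes, and it also acts early in the making of fat cells. In muscle the pathway is known for its part in satellite cell growth and in wasting. Much of the activity of STAT3 is set by phosphorylation, which an array of transcripts does not measure.

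The 60 bases of each CEBPB probe are shown because the pair gives this gene 2 separate readings. In the member probe the capitals mark an ATG, after which no stop codon came in the 17 codons to the end of the probe. In the second probe the capitals mark leucine codons 6, 13 and 20 of an open frame of 20 codons, spaced by 7 codons as in a leucine zipper.

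CEBPB: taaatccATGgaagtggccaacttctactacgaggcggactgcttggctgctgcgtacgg
CEBPB second probe: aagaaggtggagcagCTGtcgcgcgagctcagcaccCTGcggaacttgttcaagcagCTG

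Of the bases, 55% were G or C in the member probe and 60% in the second, against 35% in the IL6 probe and 45% in the STAT3 probe. The levels below are log2 of the normalized signal. They rank one probe's samples and not one gene against another.

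The 3 genes did not have the same course over the 13 groups. IL6 was faint in nearly all groups. It stood out in 1 animal at T120, and at U2month all 3 animals lay above all 3 of U1month. STAT3 was lowest at T70 and T100 and highest at birth. CEBPB stayed low until 100 days, was higher at 135 days in both breeds and was highest at 1 and 2 months.

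**Figure D1:**
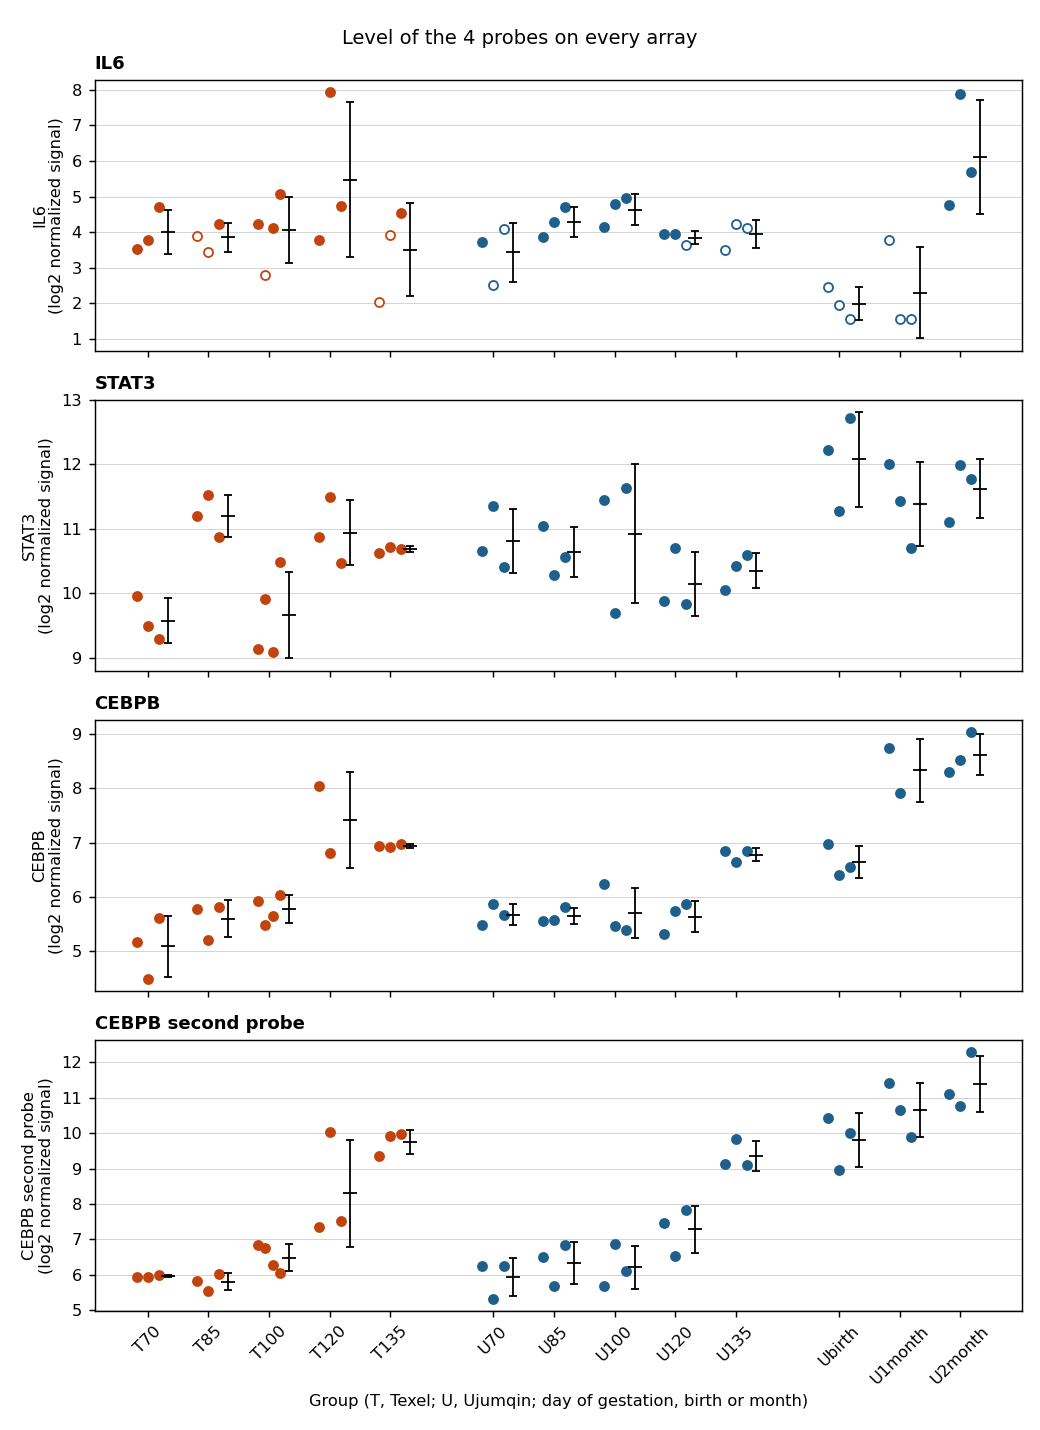
Log2 normalized signal (vertical axes) of the IL6, STAT3 and CEBPB probes and the second CEBPB probe in 13 groups (horizontal axis; Texel orange, Ujumqin blue). Points are single arrays, open where the spot was not well above background, and the bars beside them are the group mean ± SD; CEBPB lacks 1 T120 and 1 U1month array, whose spots were outliers. The highest means were 6.11 for IL6 (U2month), 12.08 for STAT3 (Ubirth) and 8.62 and 11.39 for the CEBPB probes (U2month).

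IL6, the ligand, was near the detection limit. Its probe was well above background on 23 of 40 arrays, and on none of the 3 arrays of U135, Ubirth or U1month. In Texel fetuses its level was 3.53, 3.79 and 4.71 at T70, 3.90, 3.43 and 4.24 at T85, and 4.24, 2.81, 4.12 and 5.06 at T100. These 3 stages overlapped. At T120 the level was 3.77, 7.93 and 4.72, and at T135 it was 2.04, 3.92 and 4.55. The second T120 animal had the highest IL6 level of all 40 arrays, while the other two lay within the range of T100.

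In Ujumqin fetuses IL6 was 3.71, 2.51 and 4.09 at U70, 3.86, 4.29 and 4.71 at U85, and 4.14, 4.78 and 4.96 at U100. It was 3.96, 3.94 and 3.64 at U120 and 3.50, 4.24 and 4.12 at U135. These 5 fetal groups had means between 3.44 and 4.62, and groups next to each other in order of mean overlapped. By stage, all 3 U100 values lay above all 3 of U120. After birth it was 2.47, 1.95 and 1.56 at Ubirth, 3.78, 1.56 and 1.56 at U1month, and 4.76, 7.88 and 5.69 at U2month. All 3 animals of U2month lay above all 3 of U1month.

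Which of its values led to the choice of IL6 is not given, so its differences are a description with no test. The mean was highest at U2month, at least 4.21-fold above Ubirth and at least 2.28-fold without U2month replicate 2. No neighbouring pair among the 13 groups, ordered by mean, was free of overlap (0 of 12), a count that was not made over all probes. U2month exceeded U1month at least 6.82-fold, a bound set by the dimmest signal well above background, with measured means of 6.11 and 2.30. Without U2month replicate 2 the bound was 3.69-fold. U1month and U2month shared no slide, and the difference of the means, 3.81, became 0.59 with a modelled background correction and -0.026 with slide as a block.

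At 120 days IL6 was 1.62 higher in Texel than in Ujumqin (SE 1.01), and the breeds overlapped. Without T120 replicate 2 the difference was 0.40. Within slide 4, with 2 against 3 arrays, it was 2.48.

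STAT3, the factor that carries the cytokine signal to the nucleus, was well above background on all 40 arrays. Its group means spanned 2.50 on the log2 scale, or 5.66-fold, from T70 to Ubirth. Among the 12 neighbouring pairs in order of mean level, 0 were free of overlap, a count that was not made over all probes.

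In Texel fetuses STAT3 moved up and down between stages. It was 9.96, 9.49 and 9.29 at T70, 11.20, 11.52 and 10.88 at T85, and 9.14, 9.92, 9.09 and 10.48 at T100. T85 lay above both neighbours with no overlap. It was 10.87, 11.49 and 10.47 at T120 and 10.63, 10.72 and 10.69 at T135, the group with the smallest spread (SD 0.05, n = 3).

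STAT3 fell by 1.54 from T85 to T100 (SE 0.41, 2.92-fold, limma adjusted p = 0.0204), a comparison in which 7.51% of all probes tested were called at an adjusted p under 0.05. It then rose by 1.29 from T100 to T120 (SE 0.41, limma adjusted p = 0.0330), where 14.7% of probes were called, although the lowest T120 value lay within the T100 range. Both calls rested on few arrays. Leaving out 1 array at a time ended the fall in 4 of 7 fits, those without T85 replicate 1 or 2 or T100 replicate 1 or 3, and ended the later rise in 3 of 7, those without T100 replicate 1 or 3 or T120 replicate 2. With slide as a block neither passed: the fall was 1.74 (limma adjusted p = 1) and the rise 1.34 (limma adjusted p = 0.337). Within slide 2, with 1 array a side, the fall was also 1.74, and within slide 3 the rise was 1.05, with 1 T120 array against 3 of T100. All T120 fetuses were male and 3 of 4 T100 fetuses female, and with sex in the model the rise did not pass (1.17, limma adjusted p = 0.0828), nor did it in a fit of these 2 groups alone (1.29, limma adjusted p = 0.161).

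The rise from T70 to T85 used the arrays behind the choice of STAT3, so its size of 1.62 (SE 0.44) is a description beside the 0.670% of probes called there. From T120 to T135 STAT3 differed by -0.26 (SE 0.44, limma adjusted p = 0.765), with 6.44% of probes called. Over the whole interval from 100 to 135 days it was 1.03 higher (limma adjusted p = 0.0598), short of the threshold, and in Ujumqin it differed by -0.57 (limma adjusted p = 0.377).

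In Ujumqin fetuses no step in STAT3 that could be tested was called. Its level was 10.65, 11.36 and 10.41 at U70, 11.05, 10.29 and 10.57 at U85, and 11.45, 9.69 and 11.64 at U100. It was 9.88, 10.71 and 9.83 at U120 and 10.05, 10.42 and 10.59 at U135. Neighbouring stages overlapped throughout, and U100 had the widest spread (SD 1.08, n = 3) because 1 array lay well under the other two. The share of all probes called was 0.276% from U70 to U85, 1.71% from U85 to U100, 1.22% from U100 to U120 and 9.95% from U120 to U135.

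The down and up course of Texel STAT3 was set against the Ujumqin course by testing the difference itself. The step from 85 to 100 days was 1.83 lower in Texel than in Ujumqin, the step from 100 to 120 days 2.07 higher and that from 120 to 135 days 0.47 lower. None of the 3 passed (limma adjusted p from 0.439 to 0.880), and the shares of all probes called were 0.0138%, 0.00691% and 0.0138%. The steps in Texel are thus not shown to differ from those in Ujumqin.

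Birth brought a higher STAT3 level. It was 12.23, 11.28 and 12.72 at Ubirth, 12.01, 11.43 and 10.71 at U1month, and 11.11, 11.99 and 11.77 at U2month. All 3 newborns lay above all 3 U135 fetuses. The rise from U135 to Ubirth was 1.72 (SE 0.44, 3.30-fold, limma adjusted p = 0.00226), in a comparison with 42.9% of probes called. It passed in each of 6 fits that left out 1 array, with values from 1.40 to 2.12. The 2 groups shared no slide, and with slide as a block the rise was 1.67 (limma adjusted p = 0.570). Their levels were in view when STAT3 was chosen, so the p-value of the rise may be too small. The later steps, to 1 month and to 2 months, were not called (limma adjusted p of 0.270 and 0.795).

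Between breeds, the 70 d difference was among the values that led to the choice of STAT3. There T70 lay below U70 by 1.23 (SE 0.29, no overlap), where 0.117% of probes were called. At the 4 later stages the difference of Texel from Ujumqin was 0.56, -1.27, 0.80 and 0.33, and none passed (limma adjusted p from 0.377 to 0.858). The shares of all probes called at 85, 100, 120 and 135 days were 0.0207%, 0.0138%, 0.0345% and 0.0207%. At 135 days the Texel values lay just above the Ujumqin values, a difference that did not pass (limma adjusted p = 0.858). The number of all probes with such a separation was not counted.

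**Figure D2:**
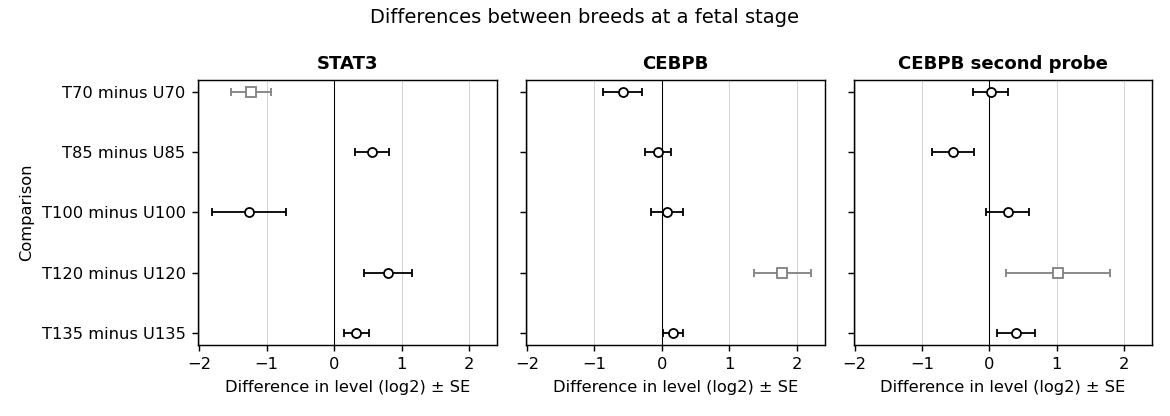
Difference of Texel from Ujumqin in log2 level (horizontal axis, with its standard error) at 5 fetal stages (vertical axis) for STAT3 and both CEBPB probes. Black circles are tested differences, none of which passed an adjusted p of 0.05, and grey squares are the contrasts behind the choice of the genes, given with no test (STAT3 at 70 d -1.23, CEBPB at 120 d 1.79, second CEBPB probe 1.02).

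CEBPB was low and even in early fetuses. Its member probe gave 5.16, 4.49 and 5.61 at T70, 5.77, 5.21 and 5.81 at T85, and 5.93, 5.47, 5.65 and 6.04 at T100. In Ujumqin it gave 5.48, 5.87 and 5.67 at U70, 5.56, 5.57 and 5.82 at U85, 6.23, 5.46 and 5.39 at U100, and 5.31, 5.73 and 5.86 at U120. These groups overlapped, and none of the tested steps among them was called. At T120 the 2 usable arrays gave 8.05 and 6.80, above every earlier fetal value.

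At 135 days both breeds were higher. CEBPB was 6.93, 6.91 and 6.98 at T135 and 6.84, 6.64 and 6.85 at U135, so all 6 fetuses lay above all 7 fetuses of 100 days. The number of all probes with such a separation was not counted. From 100 to 135 days it rose by 1.17 in Texel (SE 0.28, limma adjusted p = 0.00179) and by 1.08 in Ujumqin (SE 0.29, limma adjusted p = 0.00694). These 2 comparisons were added after the data were seen because their group means hold no 120 d array. The spread behind their p-values came from all 13 groups, the 120 d arrays included. In them 28.9% and 25.5% of all probes were called. The levels at 100 and 135 days were also in view when CEBPB was chosen. Leaving the 120 d arrays out of the means does not undo this, so the p-values may be too small.

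The second CEBPB probe gave the same direction with a larger size. Its level was 6.85, 6.76, 6.29 and 6.05 at T100 and 9.37, 9.91 and 9.98 at T135. In Ujumqin it was 5.68, 6.87 and 6.10 at U100 and 9.12, 9.84 and 9.10 at U135. It rose 9.61-fold in Texel (3.26, SE 0.49, limma adjusted p = 7.93e-06) and 8.81-fold in Ujumqin (3.14, SE 0.53, limma adjusted p = 4.20e-05), with no overlap in either breed. This probe and these comparisons were both added after the data were seen, so its p-values may be too small as well.

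Within a breed, fetuses of 100 and 135 days shared no slide. With slide as a block the Ujumqin rise of the member probe (1.40, limma adjusted p = 0.0813) did not pass. Nor did the rises of the second probe in Texel (1.88, limma adjusted p = 0.284) and Ujumqin (2.19, limma adjusted p = 0.177). The Texel rise of the member probe became 2.21 and kept its call. That fit joins T100 on slides 2 and 3 to T135 on slides 4 and 5 through U100 and T120, on slides 3 and 4. It thus draws on T120 arrays behind the choice of CEBPB and is not a separate test. With a modelled background correction the member probe rose by 0.43 in Texel (limma adjusted p = 0.0167) and by 0.35 in Ujumqin (limma adjusted p = 0.0768), which was no longer a call. Each of the 4 rises passed in every fit that left out 1 array.

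Over the same interval the summed signal of 7 adipocyte markers was higher, at 3688 to 4943 in T100 and 7856 to 8316 in T135, and at 3833 to 4126 in U100 and 7618 to 9713 in U135. The genes of the list did not move together. In Texel 1 of 7 rose and 0 fell, LPL, the lipase that frees fatty acids from circulating fat (2.37). In Ujumqin 2 of 7 rose and 0 fell, LPL (2.04) and PPARG, the master regulator of fat cells (0.99). The median over the 7 genes was 0.41 in Texel and -0.14 in Ujumqin, and LEP (-0.65 and -0.43) and PLIN1, a coat protein of lipid droplets (-0.16 and -0.14), were below 0 in both without passing. Of 4 fibroblast and matrix markers 2 fell in Texel and 4 in Ujumqin, and 0 rose in either. The part of these cell types in the CEBPB result was not tested.

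After birth CEBPB was 6.98, 6.41 and 6.55 at Ubirth, 8.74 and 7.92 on the 2 usable U1month arrays, and 8.30, 8.52 and 9.04 at U2month. It rose by 1.69 from Ubirth to U1month (SE 0.33, 3.22-fold, limma adjusted p = 0.000782), where 21.0% of probes were called. No array of one group overlapped the other. These groups shared no slide, and with slide as a block the rise was 1.58 (limma adjusted p = 0.646). Their levels were in view when CEBPB was chosen, so the p-value of the rise may be too small. From U1month to U2month, where 7.58% of probes were called, the member probe did not pass.

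The second probe gave 10.43, 8.96 and 10.02 at Ubirth, 11.42, 10.66 and 9.90 at U1month, and 11.12, 10.76 and 12.29 at U2month. Its step to U1month was 0.86 (SE 0.53, limma adjusted p = 0.252), with overlap, so the call of the member probe after birth was not made by the second. The summed signal of 9 leukocyte markers was 2199 to 2626 at Ubirth, 3465 to 4512 at U1month and 5187 to 8185 at U2month. Singly, 2 of the 9 rose and 1 fell from Ubirth to U1month, and 0 were called from U1month to U2month. CATHL3, an antimicrobial peptide of neutrophil granules, was at least 113-fold lower at U1month, where 0 of 3 arrays were well above background, than at Ubirth (measured means 2.91 and 10.19). Their part in the CEBPB levels was not tested.

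**Figure D3:**
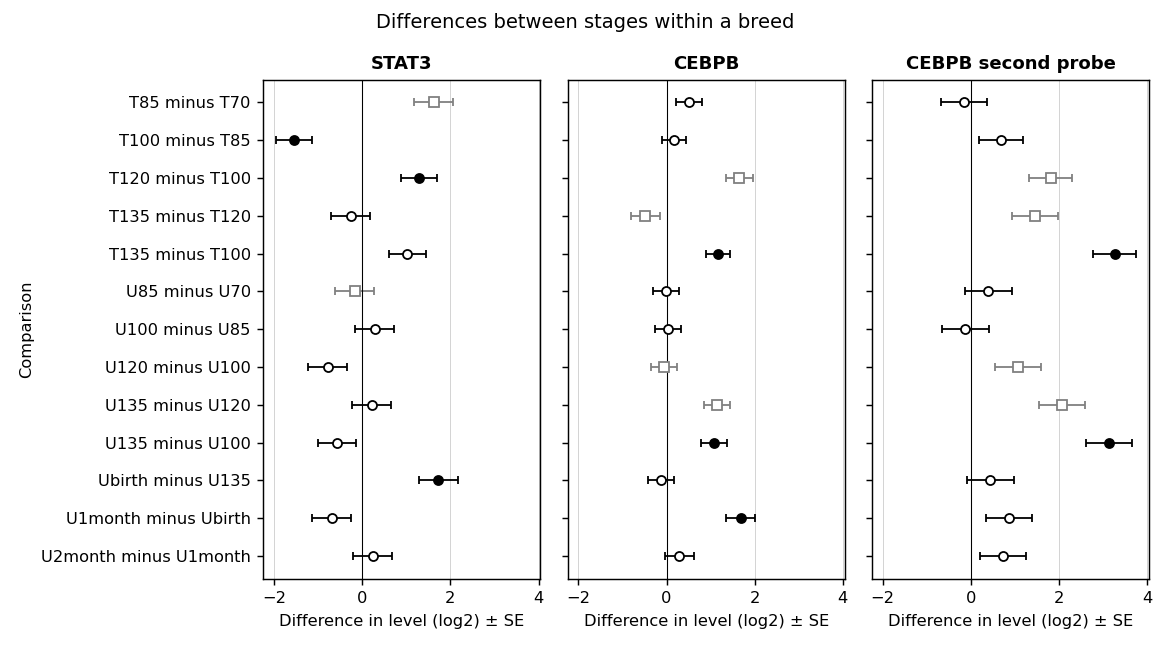
Difference in log2 level between stages within a breed (horizontal axis, with its standard error) for STAT3 and both CEBPB probes (vertical axis, one comparison per row). Filled circles passed a limma adjusted p of 0.05, open circles did not, and grey squares are contrasts given with no test. STAT3 passed in 3 stage comparisons, the CEBPB member probe in 3 and the second CEBPB probe in 2.

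The 120 d arrays led to the choice of CEBPB, so its values there are a description. T120 exceeded U120 by 1.79 (SE 0.43), with 2 against 3 arrays and no overlap. Leaving out 1 array gave 1.16, without T120 replicate 1, to 2.42, without T120 replicate 2. The left-out T120 spot was an outlier by the scanner's rule, and keeping such spots gave 2.05. Within slide 4 the difference was 1.16, with 1 array against 3, and a modelled background correction gave 0.72. All T120 fetuses were male and all U120 fetuses female, so breed and sex cannot be told apart here.

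The second probe was higher in T120 by 1.02 (SE 0.77), with 7.34, 10.04 and 7.53 at T120 against 7.47, 6.54 and 7.83 at U120, and the breeds overlapped. Without T120 replicate 2 it was 0.15. The 2 probes put the T120 arrays in different order: replicate 1 was the higher of the usable arrays in the member probe and replicate 2 the highest in the second. The leukocyte markers summed to between 3025 and 13625 at T120 and between 3041 and 3753 at U120. Singly, 0 of the 9 markers were called between these groups, and their part was not tested. At the other 4 stages no breed difference in either CEBPB probe was called (limma adjusted p from 0.356 to 0.978). At 135 days the 3 T135 values of the member probe lay above the 3 of U135 by 0.16, which did not pass (limma adjusted p = 0.904). How many of all probes separate in this way was not counted.

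Over the 38 arrays with both readings the CEBPB probes had a Pearson correlation of 0.854, and over the 13 group means one of 0.916. The arrays share their stages, so these values are a description. The range of group means was 3.53 in the member probe (11.6-fold, T70 to U2month) and 5.59 in the second (T85 to U2month). Of 12 neighbouring pairs in order of mean, 2 were free of overlap in the member probe, T135 above U135 and Ubirth above T100, and 0 in the second. The same count was not made over all probes.

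The other genes of the pathway came from lists chosen with earlier results known. Of them 31 were measured under their own symbol, beside the 3 members. They held 1 other ligand, leptin (LEP), 1 receptor, LEPR, 1 further STAT factor, STAT5A, and 1 further C/EBP factor, DDIT3, together with targets and acute phase genes, 13 inflammatory cytokines and related genes, and 3 immediate early genes. Of the 4 kinases and 14 inhibitors listed, 0 could be read by symbol.

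Where Texel STAT3 fell, from T85 to T100, 0 of the 31 genes rose and 1 fell, SERPINA1, the acute phase protease inhibitor (-2.19), where 7.51% of all probes were called. The median over the 31 was 0.06, against -0.01 over all probes. Where it rose again, from T100 to T120, 7 rose and 2 fell, where 14.7% of all probes were called, with a median of 0.40 against -0.04. Scaling to the 75th percentile gave 5 calls in place of 9. The 7 were VEGFA, the vessel growth factor (1.73), IRF1, an interferon-response transcription factor (2.15), the adhesion molecule ICAM1 (0.99), the cytokines IL7 (2.53) and IL10 (1.16), the NF-kappaB inhibitor NFKBIA (1.40) and the endotoxin receptor TLR4 (1.28). LEP (-1.25) and the metalloproteinase inhibitor TIMP1 (-0.72) were the 2 that fell. IL7 was well above background on only 1 of 4 T100 arrays, so the size of its rise is uncertain. Over the same step the 9 leukocyte markers had a median of 0.85 with 0 called, and their part was not tested. From T120 to T135, 0 rose and 3 fell: IRF1 (-1.61), IL10 (-1.72) and the cytokine TNF (-2.49), where 6.44% of all probes were called.

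Between breeds at 120 days 0 of 31 were called in either direction, and their median was 0.45 higher in Texel, against -0.06 over all probes. From 100 to 135 days, where CEBPB rose in both breeds, 2 of 31 rose and 2 fell in Texel, where 28.9% of all probes were called, and 6 rose and 3 fell in Ujumqin, where 25.5% were. VEGFA rose in both (1.20 and 1.56), while TIMP1 (-0.78 and -0.74) and the cytokine IL1A (-2.26 and -3.52) fell in both. IL1A was well above background on only 1 of 3 arrays at T135 and 1 of 3 at U135, so the sizes of its falls are uncertain. LEPR, a gp130-like receptor that also signals through STAT3, fell by 1.25 in Ujumqin.

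From U135 to Ubirth, where STAT3 rose, 2 of 31 rose and 6 fell, where 42.9% of all probes were called, with a median of -0.22 against -0.01. Scaling to the 75th percentile gave 13 calls in place of 8. All 4 fibroblast and matrix markers fell over the same step (median -1.08), as did KDR, a receptor of endothelial cells (-0.96), and their part was not tested. LEP (1.45) and MCL1, a survival factor (0.48), rose. SERPINA1 (-3.02), PTGS2, the inducible cyclooxygenase (-2.12), IL10 (-1.64) and IL18 (-1.03) were among those that fell. Only some of the probes of PTGS2 and IL18 moved that way.

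From Ubirth to U1month 3 of 31 rose and 0 fell, where 21.0% of all probes were called. From U1month to U2month 7 of 31 rose and 0 fell, where 7.58% of all probes were called, with a median of 0.98 against 0.02 over all probes. The 7 were the neutrophil chemokine IL8 (2.28), ICAM1 (1.54), ZFP36, which speeds the decay of cytokine messages (1.17), MCL1 (1.13), DDIT3 (1.09), BCL2L1 (0.98) and STAT5A (0.78). Ubirth, U1month and U2month lay on slides 1, 3 and 5, so a difference in age cannot be told apart from one between slides. The U2month animals were all female, while 1 U1month animal was male.

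The 2 arrays with the highest IL6, T120 replicate 2 and U2month replicate 2, were read across the same list. Of the 31 genes, 21 (67.7%) were highest in T120 replicate 2 among the 3 T120 animals, against 32.8% of all probes. Of 13 cytokines and related genes 9 were highest there, of 3 immediate early genes 3, and of 9 leukocyte markers 3. In U2month replicate 2 the 31 genes gave 14 (45.2%), against 29.8% of all probes, with 6 of 13 cytokines, 3 of 3 immediate early genes and 1 of 9 leukocyte markers. Replicate 1, with the lowest IL6 of U2month (4.76), was also the highest for 6 of 13 cytokines.

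The immediate early genes are switched on within minutes of a stimulus. JUNB was 7.94, 9.50 and 7.52 at T120 and 10.47, 11.17 and 9.58 at U2month, in replicate order. EGR1 was 13.48, 14.21 and 12 at T120 and 14.56, 15.79 and 13.39 at U2month. ZFP36 was 11.22, 12.10 and 10.29 at T120 and 13.25, 13.71 and 12.63 at U2month. All 3 were highest in the animal with the highest IL6 at both stages, which were picked for that IL6 level. At U120 all 3 were highest in replicate 3 (8.40, 15.57 and 11.22), which had the lowest IL6 there (3.64). At U1month JUNB and ZFP36 were highest in replicate 1, which had the highest IL6 there (3.78), and EGR1 in replicate 3. Neither of these IL6 spots was well above background. CXCL10, an interferon-induced chemokine, was 9.89, 15.08 and 14.19 at T120 but 12.65, 7.48 and 9.83 at U2month, where the animal with the highest IL6 was the lowest.

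**Figure D4:**
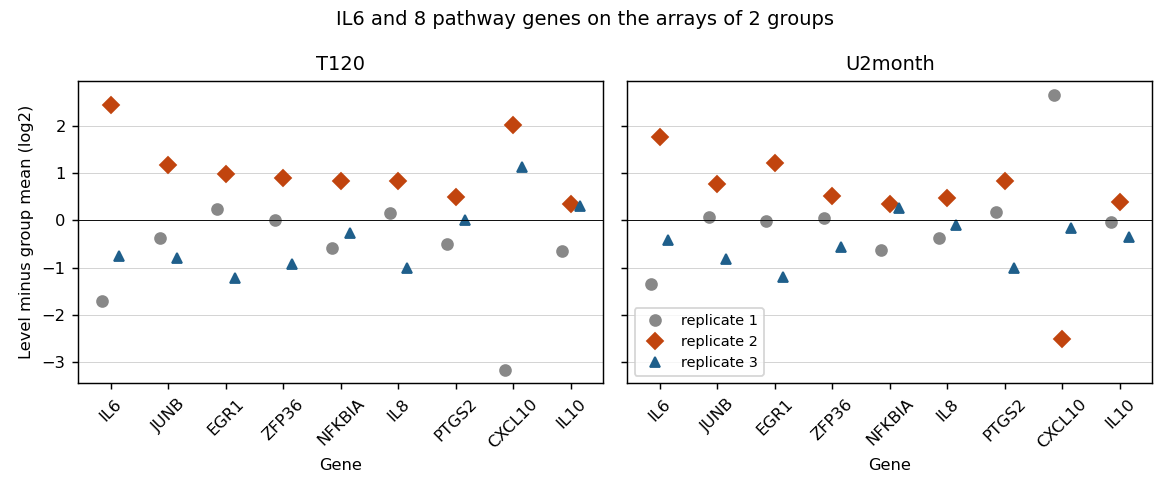
Level of IL6 and 8 pathway genes minus the mean of their group (vertical axis, log2) on the 3 arrays of T120 (left) and U2month (right), 1 symbol per replicate; the 8 genes (horizontal axis) were picked after their values were seen. Replicate 2, with the highest IL6 in both groups (levels 7.93 and 7.88), was also the highest for JUNB, EGR1 and ZFP36 in both, while CXCL10 was highest there at T120 and lowest at U2month.

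The 8 calls in the member and second probes were each computed under other settings. Scaling to the 75th percentile and the authors' table of normalized values left all 8 called. The modelled background correction ended 1 call, the rise of CEBPB from U100 to U135, and sex in the model ended 1, the rise of STAT3 from T100 to T120. That correction also brought the CEBPB rise from Ubirth to U1month to 0.84, and those of the second probe from 100 to 135 days to 1.95 and 1.82. Slide as a block ended 7 of 8, leaving the rise of CEBPB from T100 to T135. That fit draws on T120 arrays behind the choice of CEBPB, so it is not a separate test of the rise.

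**Figure D5:**
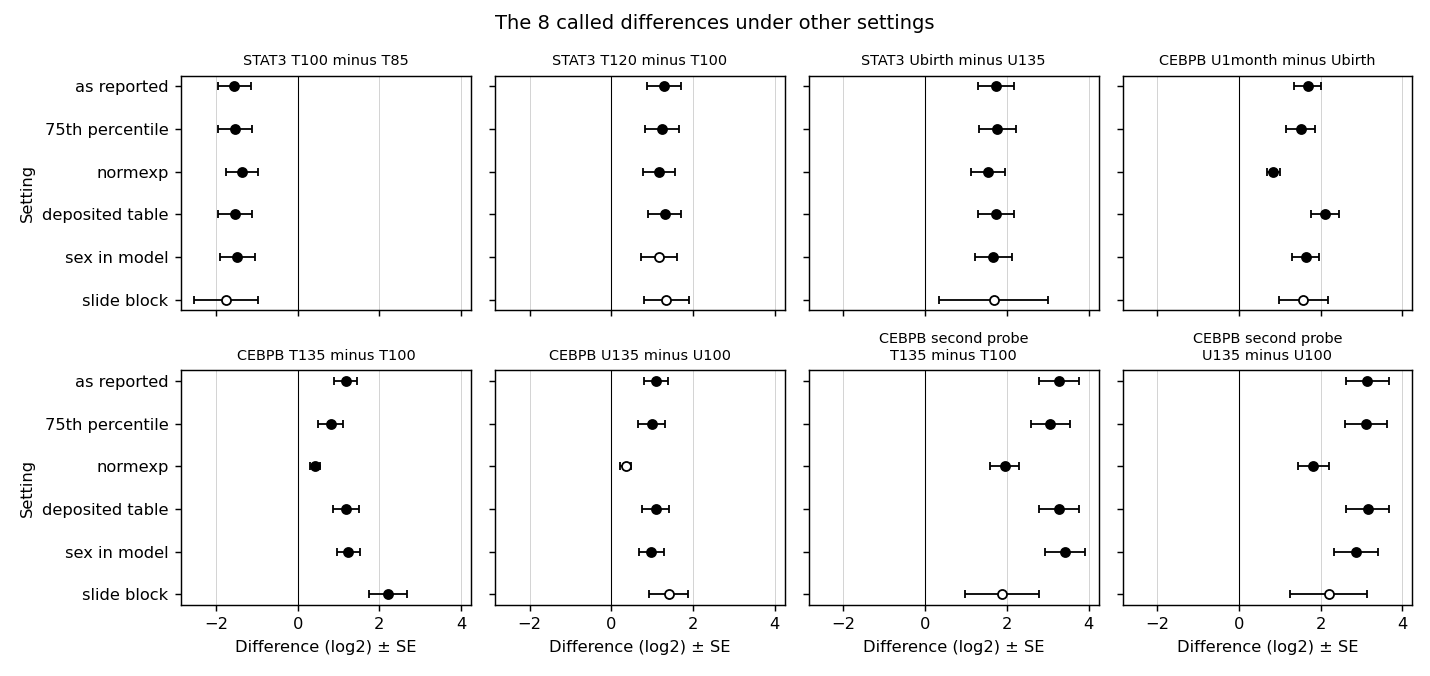
The 8 called differences in log2 level (horizontal axes, with standard errors) as reported and under 5 other settings (vertical axes); filled points passed a limma adjusted p of 0.05 and open points did not. All 8 kept their sign in every setting shown, and only the rise of CEBPB from T100 to T135 (2.21) passed with slide as a block. The block fit of that rise draws on T120 arrays behind the choice of CEBPB, so it is not a separate test.

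Likeness in course was measured as the Pearson correlation over the 13 group means with 894 named genes, as a description. The genes most like IL6 were IL10, an anti-inflammatory cytokine (0.862), TLR8, a sensor of single-stranded RNA (0.815), and CYBB, a subunit of the phagocyte oxidase (0.798). TLR8 was faint too, with group means from 2.36 (U135) to 4.48 (U2month). CEBPB came in place 341 (0.14) and STAT3 in place 634 (-0.16). For STAT3 they were EIF4A2, a translation initiation helicase (0.785), ARL1, a small GTPase of the Golgi (0.758), and HOMER (0.751), with CEBPB in place 108 (0.587). For the CEBPB member probe they were OMYHCS (0.931), JUNB (0.929) and ZFP36 (0.927), with STAT3 in place 243. The IL10, JUNB and ZFP36 probes named for likeness were other probes of these genes than those whose values are given above.

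For the second CEBPB probe the 3 closest of 895 genes were GSTA1, a glutathione transferase (0.990), NAMPT, an enzyme of NAD synthesis (0.988), and another OMYHCS probe (0.978), with the member probe in place 55. No member was among the 3 genes most like another member. Of the 3 pairs of members, STAT3 and CEBPB were the closest in course.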

How the data were processed

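RNA of 40 muscles was hybridized to one-color Agilent sheep arrays. The deposited values were spot intensities that the authors extracted with Agilent Feature Extraction 10.5.1.1, background subtracted per the file headers; the authors also deposited normalized log2 values, used as an alternative. Here outlier spots were dropped, spots of a probe averaged, arrays quantile normalized and values floored at 1 before taking log2. The 14480 probes with at least 1 array well above background entered limma 3.58.1 (R 4.3.3), with Benjamini-Hochberg adjustment over all of them. Breed contrasts used the arrays of that stage alone; stage contrasts came from one fit of 13 groups. P-values measure the spread between arrays of a group, 1 per animal, pooled over the 13 groups in the stage contrasts. This spread does not cover a slide difference between groups that share no slide.

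Members and lists were chosen with earlier results of these data known. Hence IL6 in every contrast, STAT3 in contrasts with 70 d arrays and CEBPB in those with 120 d arrays were not tested, and the F test of the breed effect between stages, which contains them, is not printed. The other levels of STAT3 and CEBPB were also in view at the choice, so the p-values given for them may be too small. List genes named were those called, at most 4 per list and contrast with the largest difference, or those whose role is described, each by its brightest probe; the 3 genes most like each member were named. Gene names in the files covered 1605 probes, 133 of all probes being named through a gene ID. Of 15 same-numbered pairs of Texel and Ujumqin arrays, 0 deviated together with a correlation over 0.1, so replicate numbers were not taken as pairs. Overlap between groups was read for the described probes only and not counted over all probes, so a lack of overlap is a description. Scripts were tested on simulated data. Alternatives covered scaling, background, filter, floor, outlier spots, slide, sex, replicate block, arrays in the fit, the deposited table and leaving out each array.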

Additional observations from a re-analysis of the deposited data

How the results depend on the processing

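Of 1042 alternative values for 65 results, 977 kept their direction and their side of the threshold or stayed within the spread or count limit. The cause of the others was not tested, except where the fit itself drops arrays. With slide as a block, which leaves few arrays that share a slide, several calls were not made: STAT3 T100 minus T85 (-1.74, limma adjusted p = 1), T120 minus T100 (1.34, limma adjusted p = 0.337) and Ubirth minus U135 (1.67, limma adjusted p = 0.570), CEBPB U1month minus Ubirth (1.58, limma adjusted p = 0.646) and U135 minus U100 (1.40, limma adjusted p = 0.0813), and the second CEBPB probe in T135 minus T100 (1.88, limma adjusted p = 0.284) and U135 minus U100 (2.19, limma adjusted p = 0.177). The second probe in U135 minus U120 then gave 1.50. The sign turned in the slide block for IL6 U2month minus U1month (-0.026), the second probe in U2month minus U1month (-0.96), STAT3 U100 minus U85 (-0.18), CEBPB T85 minus U85 (0.16) and CEBPB T100 minus U100 (-0.51), none of which was a call.

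Modelled background (normexp) gave CEBPB 0.72 for T120 minus U120, 0.68 for T120 minus T100, 0.38 for U135 minus U120 and 0.35 for U135 minus U100 (limma adjusted p = 0.0768, no longer called). It gave the second probe 1.41 for U135 minus U120 and -0.023 for T70 minus U70, and IL6 0.59 for U2month minus U1month, which a floor of 16 put at 2.11. The range of group means became 0.59 for IL6, 1.47 for CEBPB and 3.71 for the second probe, and the pathway genes called in T100 minus T85 became 2.

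Scaling to the 75th percentile moved the median of all probes from -0.01 to 0.22 in Ubirth minus U135, from 0.02 to -0.11 in U2month minus U1month and from 0.00 to -0.15 in T135 minus T100. CEBPB then gave 0.25 in Ubirth minus U135, near that shift, 0.10 in T85 minus U85, 0.023 in U85 minus U70 and -0.027 in U100 minus U85. Pathway genes called became 5 in T120 minus T100 and 13 in Ubirth minus U135. With sex in the model STAT3 T120 minus T100 was 1.17 (limma adjusted p = 0.0828) and the second probe in T70 minus U70 was -0.065. With the arrays of T120 and T100 alone STAT3 was 1.29 (limma adjusted p = 0.161). CEBPB U2month minus U1month was -0.13 in the deposited table and -0.12 with outlier spots kept.

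Replicate numbers did not pair the samples. With a replicate block, which drops T100 replicate 4, STAT3 T135 minus T100 was 1.30 (limma adjusted p = 0.0272, called) and CEBPB T100 minus U100 was -0.012; no other call changed.

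Leaving out 1 array at a time gave these lowest and highest values for results whose call or sign changed. STAT3 gave -1.82 to -1.36 in T100 minus T85, 1.01 to 1.56 in T120 minus T100, 0.84 to 1.30 in T135 minus T100 (called without T100 replicate 4), -1.19 to -0.21 in U135 minus U100 (called without U100 replicate 2), -0.50 to 0.010 in T135 minus T120, -0.072 to 0.90 in U100 minus U85 and -0.096 to 0.55 in U2month minus U1month. CEBPB gave -0.16 to 0.14 in T85 minus U85, -0.074 to 0.34 in T100 minus U100, -0.020 to 0.28 in T100 minus T85, -0.11 to 0.081 in U85 minus U70, -0.23 to 0.19 in U100 minus U85 and -0.12 to 0.69 in U2month minus U1month. The second probe gave -0.28 to 0.17 in T70 minus U70 and -0.45 to 0.14 in U100 minus U85.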
